A study of Mus musculus with 12 samples.

Results

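The genes described here are 7 mouse carboxylesterases, Ces1c, Ces1d, Ces1e, Ces1f, Ces1g, Ces2e and Ces2g, of 20 genes of that family and 55450 genes in the count data. They were listed by symbol, and Ces1g was chosen by its difference between the genotypes, measured in these same 12 libraries, so its genotype values are given below as a description with no test. Ces1c had no count in any library. The other 6 were tested, and of these Ces1d, Ces1e, Ces1g and Ces2g reached a group mean of at least 1 CPM, the count scaled to the library's total after TMM normalization.

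Carboxylesterases are serine hydrolases of the endoplasmic reticulum that split ester and amide bonds in drugs, toxicants and endogenous lipids. Genes of the Ces1 group code for the enzymes that cleave triacylglycerol, cholesteryl esters and many prodrugs, and those of the Ces2 group prefer esters with a small acyl group. In the lung they are known from alveolar and bronchiolar epithelium, where they act on inhaled esters and on lipids.

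RNA-seq was performed on type II alveolar epithelial (AT2) cells, which make surfactant. AhRfl/fl mice, the control genotype (labelled WT), carry loxP sites in the Ahr gene, which codes for the aryl hydrocarbon receptor (AhR), a transcription factor that small aromatic molecules switch on. Sftpc-Cre;AhRfl/fl mice (labelled KO) carry the same floxed gene and the Cre recombinase under the Sftpc locus. By design the gene is cut in cells that express or once expressed surfactant protein C and not in other cells of the preparation. Which cells were cut was not measured in these libraries, and the paper cautions that Sftpc may not be unique to AT2 cells. Both genotypes were on a C57BL/6 background and were 6 to 8 weeks old, matched for age and sex. Lung cells were freed with dispase, cells bearing CD16/32, CD45, Ter119 or Sca-1 were removed, and the rest was plated on collagen I. Cells of each genotype then received PBS or 50 µg/ml of cockroach extract for 24 h. The extract is abbreviated CRE and has nothing to do with the recombinase. This gave 3 libraries in each of 4 groups. The labels do not say whether the 3 libraries came from separate animals, so p-values measure the spread between libraries. In bulk RNA, fewer cells of a type and less RNA per cell cannot be told apart.

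Total counts per library ranged from 68878065 to 80935797. Ahr itself was counted at 37.7 to 56.2 CPM in all 12 libraries, and a count over the whole gene does not show whether an exon was deleted. Cyp1b1, a known target of the receptor, was at 344 to 465 CPM in AhRfl/fl libraries and at 31.7 to 63.9 CPM in Sftpc-Cre;AhRfl/fl libraries. All 10 AT2 markers were detected in each group, and their summed level was 7276 to 14010 CPM. The 6 club cell markers were also detected in each group and summed to 3982 to 8152 CPM. The summed levels of the other lists were 540 to 1237 CPM for AT1 cells, 93.0 to 232 for ciliated cells, 15.9 to 181 for alveolar macrophages, 38.6 to 87.0 for endothelium, 75.5 to 272 for fibroblasts, 82.1 to 173 for mesothelium and 0.0508 to 1.22 for adipocytes. No marker of these lists was called in the contrasts of genotype, of CRE within a genotype or of their interaction.

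All 20 family genes lie on chromosome 8 (GRCm38, positions from GENCODE M21) in 2 blocks. The first block, chr8:93020214-93535830, holds 9 genes, the Ces1 genes and Ces5a, on the minus strand. In it, Ces1g (ENSMUSG00000057074) spans chr8:93302369-93337308. Ces1d (ENSMUSG00000056973) spans chr8:93166068-93197838, and Gm45909, annotated on the same strand, overlaps it. Ces1e (ENSMUSG00000061959) spans chr8:93201218-93229619. The second block, chr8:104734003-105150109, holds 11 genes on the plus strand, among them Ces2e (ENSMUSG00000031886) and Ces2g (ENSMUSG00000031877), the latter at chr8:104961718-104969537.

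The promoter windows are shown because the genotypes differ in a receptor that binds DNA at sites with the core GCGTG. RefSeq (GRCm38.p6) gave 300-base windows, 250 bases before to 50 after the start, for 15 family genes, 5 of them described here (Ces1c, Ces1e, Ces1g, Ces2e and Ces2g). The bases that precede both the RefSeq and the GENCODE start are printed for Ces1g (chr8:93337309-93337459, minus strand), for Ces1e (chr8:93229620-93229869, minus strand) and, for comparison, for Cyp1b1 (chr17:79715062-79715311, minus strand), each 5′ to 3′, with GCGTG or its reverse complement in capitals. The Ces1g stretch is shorter because its GENCODE start lies 99 bases upstream of the RefSeq start.
Ces1g: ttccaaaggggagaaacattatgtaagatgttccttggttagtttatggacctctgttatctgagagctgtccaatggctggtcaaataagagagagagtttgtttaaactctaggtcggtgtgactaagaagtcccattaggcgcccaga
Ces1e: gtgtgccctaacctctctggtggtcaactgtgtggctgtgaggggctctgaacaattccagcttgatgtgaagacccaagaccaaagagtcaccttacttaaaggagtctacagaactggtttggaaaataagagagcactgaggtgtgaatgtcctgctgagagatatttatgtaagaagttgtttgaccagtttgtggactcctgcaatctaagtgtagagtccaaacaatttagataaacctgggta
Cyp1b1: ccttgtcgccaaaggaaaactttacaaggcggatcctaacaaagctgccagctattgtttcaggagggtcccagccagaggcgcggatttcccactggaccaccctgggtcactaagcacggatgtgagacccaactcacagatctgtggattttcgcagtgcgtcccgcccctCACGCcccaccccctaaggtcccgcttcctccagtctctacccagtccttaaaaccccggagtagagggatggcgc
On both strands of the whole windows, GCGTG was found in no window of these 5 genes, in 1 of the 16 family windows (Ces2h) and in 32.4% of 32851 windows of this length. The core of the antioxidant response element, TGACNNNGC, was found in 0 of 16 family windows and in 12.4% of all. No match says only that these letters are not in these windows. The Cyp1b1 window held GCGTG once, on the opposite strand.

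The coding sequences of the Ces1 members are close copies, which bears on how reads could be shared. In GENCODE M21 the longest coding sequence of Ces1g (1695 bases) was 81.5% identical to that of Ces1d (1695 bases) and 77.4% identical to that of Ces1e (1686 bases) in a global alignment. Ces2e and Ces2g were 82.4% identical to each other, and Ces1g was 55.5% identical to Ces2e. The longest run of identical coding bases of Ces1g was 74 bases with Ces1e, 73 with Ces1c and 59 with Ces1f. Its longest run with Ces1d is shorter and is printed as an example of what a read would have to cross. That run spans bases 1464 to 1520 of both coding sequences.
Ces1g and Ces1d: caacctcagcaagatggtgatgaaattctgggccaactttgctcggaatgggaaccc
Over all transcripts, 1.67% of the 50-base words of Ces1g also occurred in another gene, as did 1.08% of those of Ces1d, 2.97% of those of Ces1e and 3.07% of those of Ces2g. Of the words of Ces1c, 13.0% were shared, most often with Ces1b, so reads of these genes can be split between them.

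Ces1g and Ces1d were the main carboxylesterases of these cultures. Per length, in the authors' FPKM, Ces1g averaged 22.5 ± 4.29 (SD, n = 3) and Ces1d 24.0 ± 4.45 in AhRfl/fl cells with PBS. Ces1e averaged 4.32 ± 1.14 and Ces2g 1.39 ± 0.546 in the same group. The order of levels was Ces1d, Ces1g, Ces1e and Ces2g, in which Ces1d and Ces1g did not differ beyond their spread. In AhRfl/fl cells with CRE, Ces1g (28.9 ± 3.25) stood above Ces1d (23.3 ± 3.20) by mean FPKM. With PBS in Sftpc-Cre;AhRfl/fl cells, Ces1g (3.48 ± 1.09 FPKM) lay near Ces1e (2.73 ± 0.181) and below Ces1d (14.8 ± 3.65).

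The makeup of the family signal differed between the groups. The 20 genes summed to 52.6 ± 8.59 FPKM in AhRfl/fl cells with PBS and to 58.4 ± 7.07 with CRE. The sums were 22.4 ± 3.09 and 27.0 ± 1.83 in Sftpc-Cre;AhRfl/fl cells. Ces1g gave 42.8% ± 3.56 and 49.5% ± 1.15 of these sums in AhRfl/fl cells with PBS and CRE, and 16.1% ± 7.32 and 20.3% ± 6.86 in Sftpc-Cre;AhRfl/fl cells. Ces1d gave 45.6% ± 4.09 and 39.9% ± 2.01 in the former and 65.5% ± 7.43 and 63.5% ± 6.13 in the latter. A share of a sum rises for one gene when another falls, and these shares include the Ces1g difference that chose it. Ces1d, Ces1e, Ces1g and Ces2g together held 97.4% to 99.6% of the sum in every library.

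**Figure D1:**
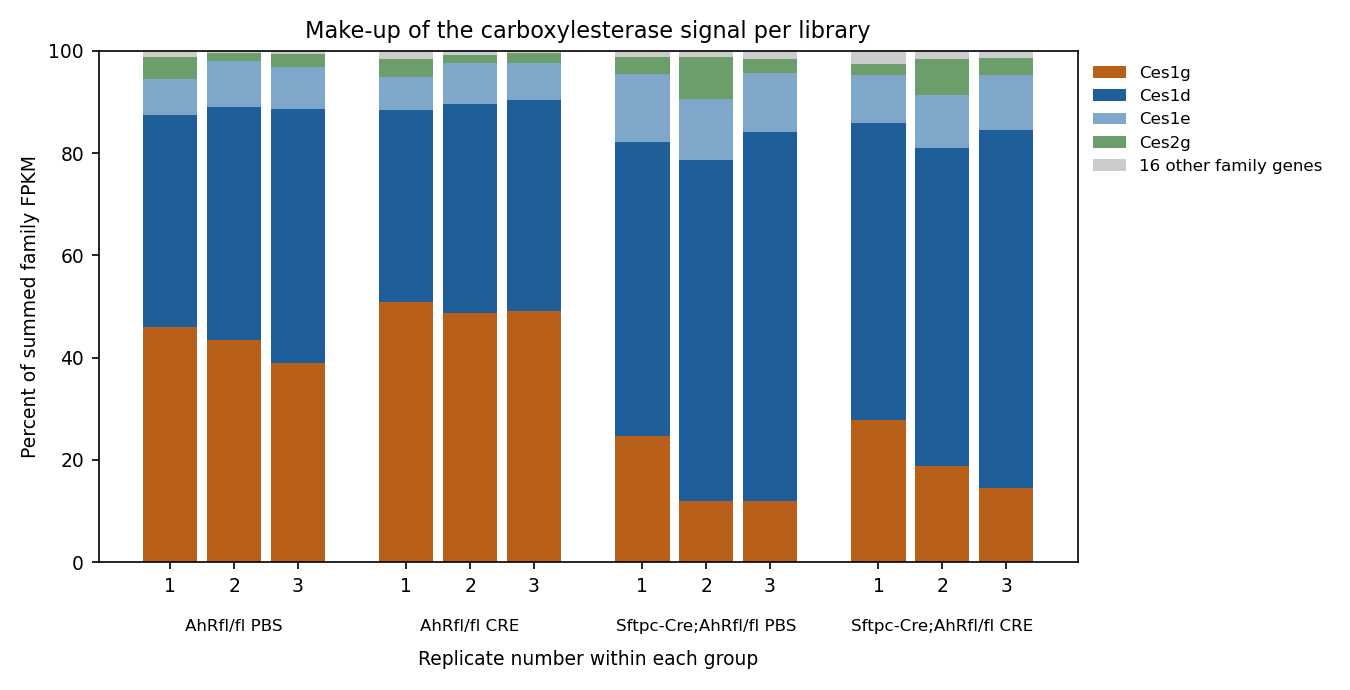
Share of the summed FPKM of the 20 carboxylesterase genes (percent, y axis) held by Ces1g, Ces1d, Ces1e, Ces2g and the 16 others in each of the 12 libraries (x axis, replicate number within each group). Ces1g averages 42.8% and 49.5% in AhRfl/fl cells and 16.1% and 20.3% in Sftpc-Cre;AhRfl/fl cells, where Ces1d holds over 60% on average.

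Ces1g, whose product hydrolyses triacylglycerol and other lipid esters, was low in every Sftpc-Cre;AhRfl/fl library. With PBS it was at 56.9, 73.7 and 50.4 CPM in AhRfl/fl replicates 1, 2 and 3 and at 12.1, 7.08 and 8.06 CPM in Sftpc-Cre;AhRfl/fl replicates 1, 2 and 3. With CRE it was at 75.3, 87.0 and 69.6 CPM in AhRfl/fl libraries and at 17.9, 14.0 and 11.1 CPM in Sftpc-Cre;AhRfl/fl libraries. The lowest AhRfl/fl library thus stood well above the highest Sftpc-Cre;AhRfl/fl library under either treatment. The group means were 60.3 ± 12.0 and 9.09 ± 2.69 CPM with PBS (n = 3), and the fitted log2 fold change of Sftpc-Cre;AhRfl/fl against AhRfl/fl was -2.73. With CRE the means were 77.3 ± 8.83 and 14.3 ± 3.42 CPM and the log2 fold change was -2.43. In fold terms Ces1g was 6.63-fold lower with PBS and 5.39-fold lower with CRE.

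Ces1g did not vanish in Sftpc-Cre;AhRfl/fl cells, where 582 to 1411 reads were counted per library. Replicate 1 was its highest library in that genotype under both treatments, and it was also the highest for Cyp1b1 (59.0 and 63.9 CPM, against 31.7 to 43.7 CPM in the other 4). The same replicate had the lowest summed AT2 markers of all libraries (7276 CPM with PBS and 7520 CPM with CRE) and the highest summed club cell markers of its genotype (8152 and 6733 CPM). Its ciliated cell sums (223 and 232 CPM) were the highest of all libraries, and its macrophage sums (141 and 106 CPM) stood above the 27.1 to 42.1 CPM of the other 4 libraries of that genotype. The club cell sum in AhRfl/fl cells was highest in replicate 3 (7850 and 6360 CPM), where Ces1g was lowest. These club cell sums were mostly Scgb1a1 (8069 and 6662 CPM in Sftpc-Cre;AhRfl/fl replicate 1). In that genotype Cyp2f2 and Scgb3a2 were also highest in replicate 1. Bpifa1 and Scgb3a1 were instead highest in replicate 2. Bpifa1 was at 105 CPM there under either treatment, against 45.5 and 36.0 CPM in replicate 1. Muc5b stayed below 1 CPM in every library. The part of these cell types in the Ces1g level was not tested.

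**Figure D2:**
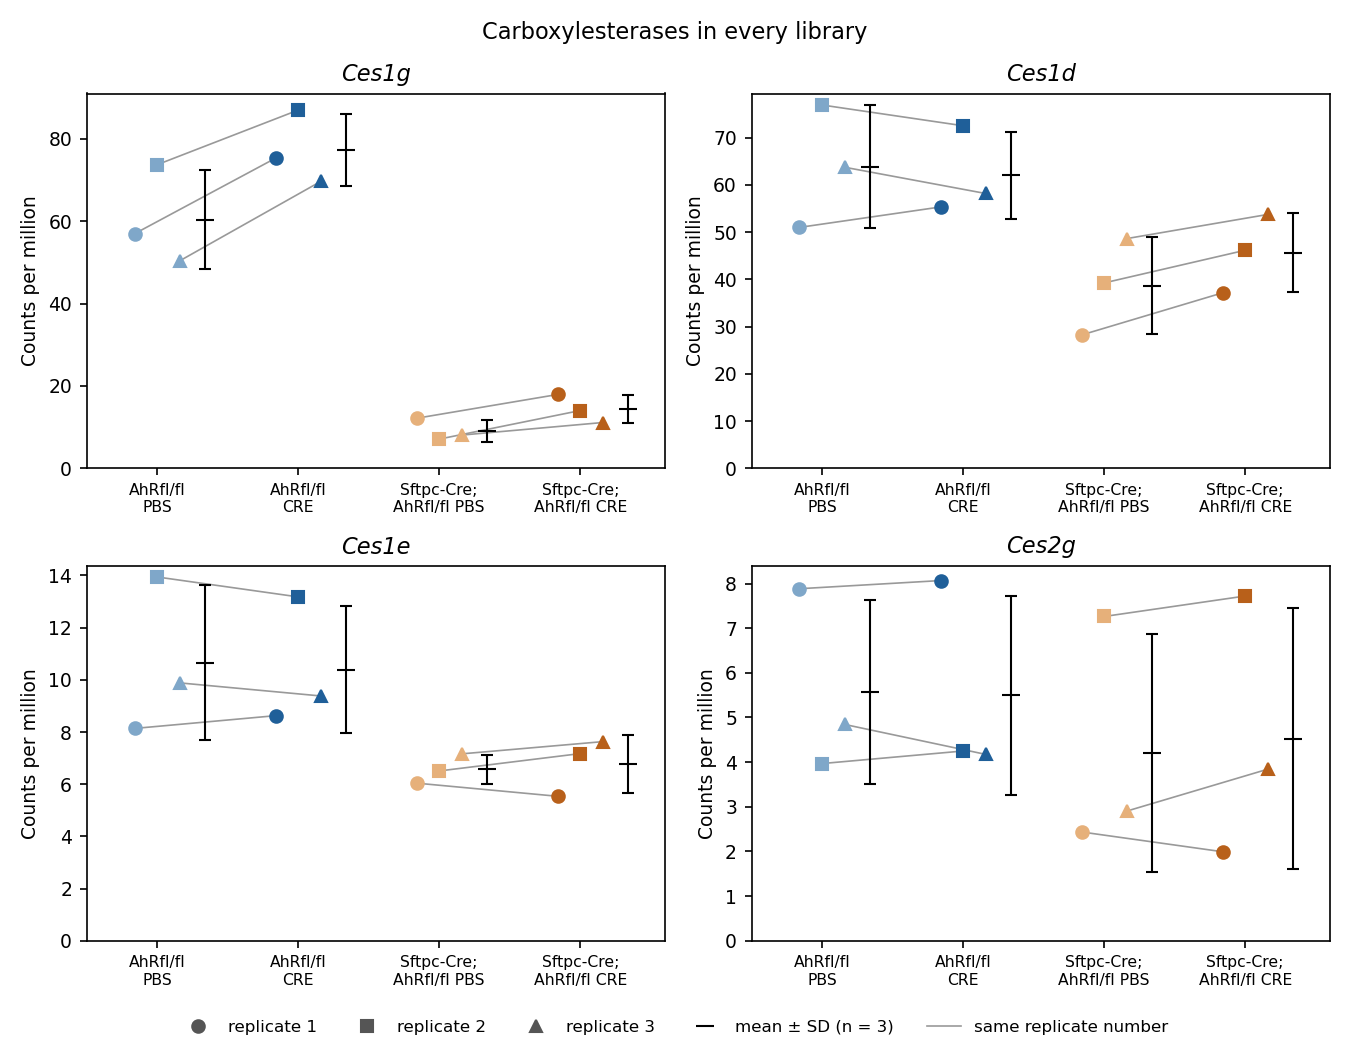
CPM (y axis, from 0) of Ces1g, Ces1d, Ces1e and Ces2g in each library of the 4 groups (x axis). Symbols give the replicate number, grey lines join PBS and CRE libraries of the same number, and bars show the mean ± SD of 3 libraries. Ces1g rises along all 6 lines, and its genotypes are far apart (means of 60.3 and 9.09 CPM with PBS), while Ces2g spreads within groups.

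Ces1d, known as a triacylglycerol hydrolase that mobilises stored fat, was lower in Sftpc-Cre;AhRfl/fl libraries by a smaller margin, which did not pass the adjusted test. With PBS it was at 51.0, 76.9 and 63.7 CPM in AhRfl/fl replicates 1 to 3 and at 28.2, 39.2 and 48.6 CPM in Sftpc-Cre;AhRfl/fl replicates. With CRE it was at 55.3, 72.5 and 58.2 CPM in AhRfl/fl libraries and at 37.1, 46.1 and 53.7 CPM in Sftpc-Cre;AhRfl/fl libraries. The genotypes did not overlap under either treatment, but with PBS the gap between the nearest libraries (48.6 and 51.0 CPM) was smaller than the spread within a group. The log2 fold change of the genotype was -0.72 (SE 0.22, 95% confidence interval -1.20 to -0.24) with PBS, and the quasi-likelihood test of edgeR gave a Benjamini-Hochberg adjusted p of 0.395. With CRE it was -0.44 (SE 0.22, interval -0.92 to 0.04, edgeR adjusted p = 0.873).

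Ces1e, the egasyn that holds β-glucuronidase in the endoplasmic reticulum, showed a like pattern at a lower level. With PBS it was at 8.14, 13.9 and 9.88 CPM in AhRfl/fl replicates 1 to 3 and at 6.04, 6.51 and 7.16 CPM in Sftpc-Cre;AhRfl/fl replicates. With CRE it was at 8.63, 13.2 and 9.38 CPM in AhRfl/fl libraries and at 5.54, 7.17 and 7.63 CPM in Sftpc-Cre;AhRfl/fl libraries. Again the genotypes did not overlap, with a single AhRfl/fl library, replicate 2, far above the rest under both treatments. The genotype difference of Ces1e was -0.70 on the log2 scale (SE 0.23, edgeR adjusted p = 0.467) with PBS and -0.62 (SE 0.23, edgeR adjusted p = 0.777) with CRE. Without AhRfl/fl replicate 2 of the same treatment these values were -0.45 and -0.41.

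Counts of calls put these genes in context. By the adjusted edgeR test, Ces1g was the only member called in the genotype comparisons, where 31 of 20612 genes (0.15%) were called with PBS and 35 (0.17%) with CRE. As that contrast chose Ces1g, nothing is read from its call. Ces1d, Ces1e and Ces1g were the members whose genotypes did not overlap with Sftpc-Cre;AhRfl/fl lower. Among all genes this held for 7.38% with PBS and 5.43% with CRE. At an unadjusted p below 0.05, the lower members beside Ces1g were Ces1d and Ces1e with PBS (background 4.6%) and Ces1e with CRE (background 3.01%). By limma-trend, with p below 0.05 before adjustment and a log2 fold change beyond 0.5 in size, Ces1d, Ces1e and Ces1g were lower with PBS (background 1.76%), and Ces1e and Ces1g with CRE (background 1.7%). The PBS and CRE libraries of one number deviated together from their group means (r of 0.325 to 0.729 across 14543 genes in the 6 pairs), so the 2 treatments are not independent looks at the genotype. With the libraries of one number summed to 3 sums a genotype, Ces1d had a log2 fold change of -0.58 (SE 0.19) and Ces1e of -0.66 (SE 0.21), with an edgeR adjusted p of 0.862 for each. Both had an unadjusted p below 0.05, as had 2.63% of genes in that direction.

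Ces1d and Ces1e also moved together within groups. Replicate 2 was highest and replicate 1 lowest for both genes in AhRfl/fl cells under both treatments, and in Sftpc-Cre;AhRfl/fl cells replicate 3 was highest and replicate 1 lowest. The highest library exceeded the lowest by 1.31 to 1.72 times for Ces1d and by 1.19 to 1.71 times for Ces1e. Pearson's r of their log2 CPM over the 12 libraries was 0.921, and r of the deviations from the 4 group means was 0.845. These 12 points share libraries, depth and pairing, and r is given as a description. The summed AT2 markers in Sftpc-Cre;AhRfl/fl cells had the same order as Ces1d, with 7276, 10153 and 13530 CPM in replicates 1 to 3 with PBS. These sums were mostly Sftpc and Lyz2 (3086 and 2862 CPM in replicate 1 with PBS). Slc34a2 was instead highest in replicate 2 (21.4 CPM with PBS and 19.3 CPM with CRE). Etv5 was about level in replicates 2 and 3 with PBS (25.5 and 25.3 CPM). The AT2 sums in AhRfl/fl cells were highest in replicate 2 (13665 and 11833 CPM with PBS and CRE) but lowest in replicate 3 (12014 and 10654 CPM), not in replicate 1 (12652 and 11368 CPM) as Ces1d and Ces1e were. Their part in the genotype values of Ces1d and Ces1e was not tested.

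Ces2g varied more within a group than between groups. With PBS it was at 7.88, 3.97 and 4.84 CPM in AhRfl/fl replicates 1 to 3 and at 2.44, 7.26 and 2.90 CPM in Sftpc-Cre;AhRfl/fl replicates. With CRE it was at 8.07, 4.25 and 4.17 CPM in AhRfl/fl libraries and at 1.99, 7.72 and 3.84 CPM in Sftpc-Cre;AhRfl/fl libraries. Replicate 1 of AhRfl/fl and replicate 2 of Sftpc-Cre;AhRfl/fl stood apart under both treatments, and the ratio of highest to lowest library within a group was 1.93 to 3.87. The groups overlapped in each comparison. The genotype log2 fold change was -0.41 (interval -1.62 to 0.81, edgeR adjusted p = 0.933) with PBS and -0.28 (interval -1.49 to 0.93, edgeR adjusted p = 1) with CRE, so that the sign was not settled.

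The 4 libraries with the most Ces2g also had the highest summed levels of the 7 fibroblast markers. These were 199 and 179 CPM in AhRfl/fl replicate 1 with PBS and CRE, and 272 and 232 CPM in Sftpc-Cre;AhRfl/fl replicate 2. The other 8 libraries had fibroblast sums of 75.5 to 158 CPM and Ces2g between 1.99 and 4.84 CPM. The part of fibroblasts in the Ces2g level was not tested. The 3 genes most like Ces2g over the 12 libraries were Ptgs1 (r = 0.946), Gpc3 (r = 0.942) and Ptgis (r = 0.930). Ptgs1 and Ptgis code for cyclooxygenase-1 and prostacyclin synthase, and Gpc3 for a glypican.

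**Figure D3:**
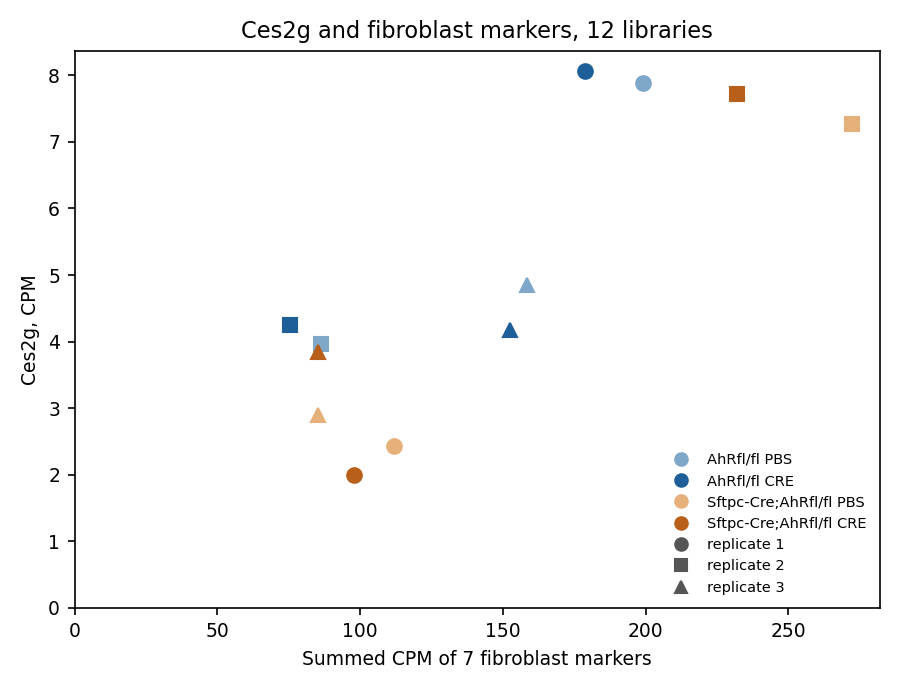
Ces2g (y axis, CPM) against the summed level of 7 fibroblast markers (x axis, CPM) in the 12 libraries, coloured by group, with symbols for the replicate number. The 4 libraries above 7 CPM of Ces2g are AhRfl/fl replicate 1 and Sftpc-Cre;AhRfl/fl replicate 2 under both treatments, with fibroblast sums of 179 to 272 CPM.

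Ces1g was higher with CRE in both genotypes by a small step. Its CPM in AhRfl/fl cells went from 56.9 to 75.3, from 73.7 to 87.0 and from 50.4 to 69.6 in replicates 1 to 3. In Sftpc-Cre;AhRfl/fl cells it went from 12.1 to 17.9, from 7.08 to 14.0 and from 8.06 to 11.1. It was higher with CRE in 6 of 6 pairs of libraries with the same number, although the PBS and CRE groups overlapped in both genotypes. The mean difference was 0.52 on the log2 scale (SD 0.25, n = 6 pairs), and an exact sign-flip permutation test (two-sided) gave p = 0.03125, the smallest that 6 pairs allow.

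Without pairing, the CRE response of Ces1g did not pass the adjusted edgeR test. The response was 0.36 on the log2 scale (SE 0.23, edgeR adjusted p = 0.693) in AhRfl/fl cells and 0.66 (SE 0.23, edgeR adjusted p = 0.61) in Sftpc-Cre;AhRfl/fl cells. No member was called among the 48 (0.233%) and 54 (0.262%) genes that were. In Sftpc-Cre;AhRfl/fl cells Ces1g had an unadjusted edgeR p of 0.0163, and 3.77% of genes were higher with an unadjusted p below 0.05. It also met the limma-trend rule there, as did 1.84% of genes in that direction. With PBS and CRE libraries paired, the edgeR log2 fold change in Sftpc-Cre;AhRfl/fl cells was 0.67 (SE 0.11, interval 0.41 to 0.92) with an adjusted p of 0.0302, in a fit where 1.33% of genes were called higher. The paired value in AhRfl/fl cells was 0.37 (SE 0.10, interval 0.12 to 0.62) with an edgeR adjusted p of 0.116, in a fit where 1.87% of genes were called higher. The call in Sftpc-Cre;AhRfl/fl cells was lost without any of the 6 pairs in turn (log2 fold change 0.52 to 0.77, adjusted p from 0.0523 without AhRfl/fl replicate 2 to 0.114 without Sftpc-Cre;AhRfl/fl replicate 1).

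Averaged over both genotypes, a comparison added after the data were seen, the paired edgeR fit gave Ces1g a log2 fold change of 0.52 (SE 0.07, interval 0.34 to 0.70, adjusted p = 0.00959), a 1.43-fold rise. In this fit 3.47% of genes were called higher. The call held without each pair in turn, with adjusted p of 0.0157 to 0.0444 in edgeR. Without pairing the average was 0.51 (SE 0.16, edgeR adjusted p = 0.235), and 1.1% of genes were called in either direction. The summed AT1 markers moved the other way, from 885 to 1065 CPM with PBS to 540 to 659 CPM with CRE in AhRfl/fl cells and from 825 to 1237 CPM to 570 to 850 CPM in Sftpc-Cre;AhRfl/fl cells. In the unpaired averaged contrast edgeR called 2 of 5 AT1 markers and 1 of 10 AT2 markers, with all 5 AT1 values and 7 of the 10 AT2 values below 0. The part of these cell types in the Ces1g response was not tested.

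The CRE step of Ces1g was not shown to differ between genotypes. The interaction term was 0.30 (SE 0.32, interval -0.41 to 1.01) with an edgeR adjusted p of 1.00, and 0.30 (SE 0.15, interval -0.05 to 0.65, adjusted p = 0.594) with pairing. No gene was called for the interaction by edgeR (0% of 20612), 763 had an unadjusted edgeR p below 0.05, DESeq2 called 21 and limma-trend with Benjamini-Hochberg adjustment 0. The Ces1g level with CRE in Sftpc-Cre;AhRfl/fl cells, 11.1 to 17.9 CPM, stayed below every AhRfl/fl library, the lowest of which had 50.4 CPM.

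Without pairing edgeR called no member for CRE, and with pairing it called only Ces1g. Ces1d was higher with CRE in 3 of 3 Sftpc-Cre;AhRfl/fl pairs and in 1 of 3 AhRfl/fl pairs. Over the 6 pairs its mean log2 difference was 0.11 (SD 0.20, exact sign-flip permutation p = 0.219). Paired within Sftpc-Cre;AhRfl/fl cells it had a response of 0.26 (SE 0.07, edgeR adjusted p = 0.161). Ces1e was higher in 3 of 6 pairs, with a mean of 0.01 (SD 0.11, exact permutation p = 0.844). Ces2g was higher in 4 of 6 pairs, with a mean of 0.02 (SD 0.25, exact permutation p = 0.875). The paired intervals for Ces1e, -0.26 to 0.21 in AhRfl/fl cells and -0.20 to 0.28 in Sftpc-Cre;AhRfl/fl cells, bound its response more tightly than those of Ces2g, -0.40 to 0.35 and -0.31 to 0.45. Adjusted by Benjamini-Hochberg over the 4 genes given this exact permutation test, p for Ces1g was 0.125.

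**Figure D4:**
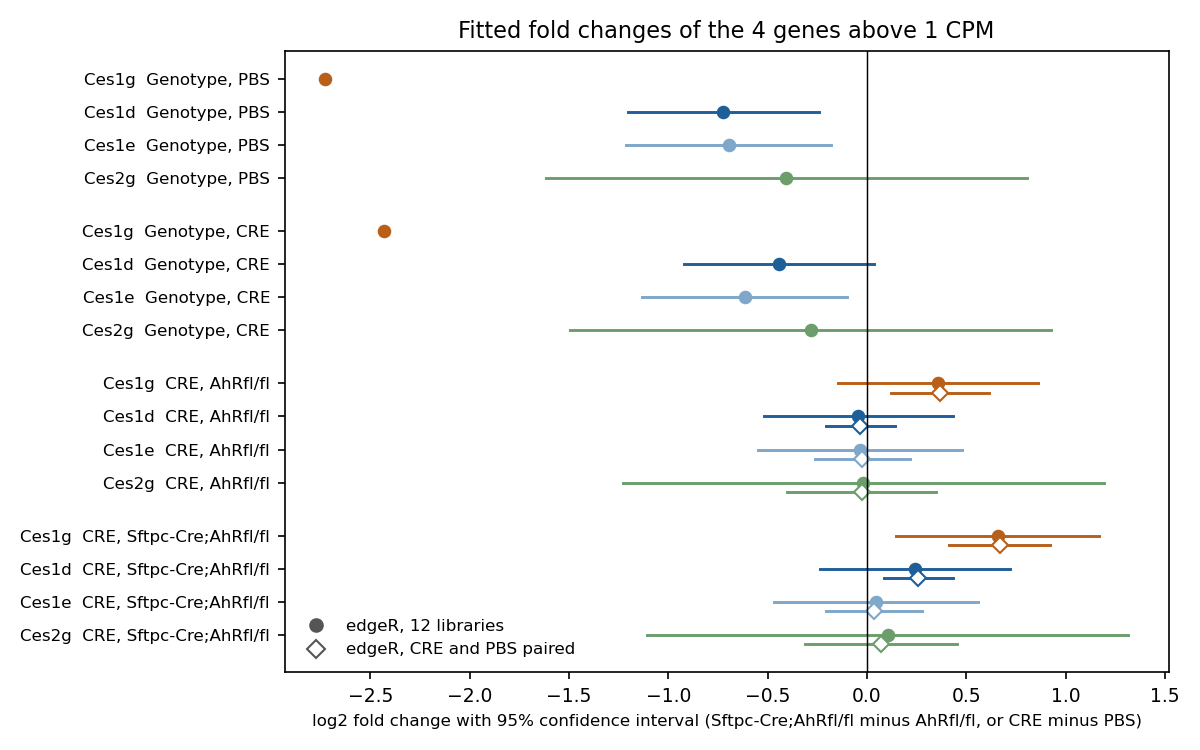
Fitted log2 fold changes (x axis) of Ces1g, Ces1d, Ces1e and Ces2g for the genotype under PBS and CRE and for CRE in each genotype (y axis). Lines are 95% confidence intervals, filled circles the fit to 12 libraries and open diamonds the fit with PBS and CRE libraries paired. Ces1g is shown without interval for the genotype, which chose it, at -2.73 and -2.43. Its paired CRE values of 0.37 and 0.67 lie right of 0.

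Ces1f, Ces2e and Ces1c were at or near the limit of detection, and no fold change is given for them. Ces1f, a liver triacylglycerol hydrolase, had 47, 18 and 0 reads in AhRfl/fl replicates 1 to 3 with PBS and 52, 0 and 35 with CRE. In Sftpc-Cre;AhRfl/fl libraries it had 8, 13 and 14 reads with PBS and 19, 19 and 13 with CRE. Reads of Ces1f were thus found in 10 of 12 libraries, at no more than 0.647 CPM, and the groups overlapped. Ces2e, an ester hydrolase of intestine and liver, had 17, 4 and 4 reads in AhRfl/fl cells with PBS and 45, 39 and 21 with CRE. In Sftpc-Cre;AhRfl/fl cells it had 0, 37 and 12 reads with PBS and 14, 41 and 15 with CRE. Its AhRfl/fl groups did not overlap, as was so for 8.82% of genes that were higher with CRE, and its edgeR adjusted p there was 0.641. Ces1c, the carboxylesterase of mouse plasma, had 0 reads in all libraries, which allows up to 3 reads a library, or 0.0371 to 0.0436 CPM on totals without the TMM factor, for counting error only.

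Of the 13 other family genes, 7 had no count in any library and 3 had counts but were not tested. The 3 that were tested, Ces1b, Ces1h and Ces2c, stayed below 1 CPM in every library and were not called in any contrast. Ces1b was found in 7 of 12 libraries with up to 27 reads, Ces1h in 11 with up to 45 and Ces2c in 9 with up to 68. Of the words of Ces2c, 36.1% also occurred in other genes, so its reads are uncertain. Ces1h is overlapped by an antisense gene on the opposite strand, and the libraries were stranded. What that overlap adds to the Ces1h reads was not tested.

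Genes around the 2 blocks were examined for the same contrasts. Of 101 genes that start within 500 kb of a carboxylesterase gene, 47 were tested and 0 were called in any of the 5 contrasts by edgeR. At an unadjusted p below 0.05, 3 were lower and 0 higher in Sftpc-Cre;AhRfl/fl cells with PBS, and 2 were lower and 2 higher with CRE. The shares over all genes tested were 4.6% lower and 3.76% higher with PBS, and 3.01% and 2.94% with CRE. The median log2 fold change of the 47 genes was -0.02 with PBS and -0.01 with CRE, beside a median of 0.00 over all genes tested.

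Other hydrolases of lipid and xenobiotic esters were tested as a wider group of 43 genes, 41 of which passed the filter. None was called between genotypes by edgeR. With PBS, 1 was higher and 3 lower at an unadjusted p below 0.05, and with CRE 2 were higher and 2 lower. Among all genes tested, 3.76% were higher and 4.6% lower with PBS, and 2.94% and 3.01% with CRE. The median genotype log2 fold change of the 41 hydrolases was -0.08 with PBS and -0.03 with CRE, beside 0.00 over all genes. Nceh1, a neutral cholesteryl ester hydrolase, was the one called for CRE. It went from 93.9, 108 and 95.6 CPM with PBS to 74.7, 78.7 and 72.1 CPM with CRE in Sftpc-Cre;AhRfl/fl replicates 1 to 3, with no overlap. The fitted change was -0.40 (SE 0.07) with an edgeR adjusted p of 0.0456, in a comparison where 0.262% of genes were called. Leaving out any one library ended that call (change of -0.44 to -0.33, edgeR adjusted p of 0.0645 to 0.222), while DESeq2 gave an adjusted p of 0.000274 and the paired edgeR fit 0.0138. Of the 20 alternative fits, these included, 4 kept the call. The highest adjusted p among the 20 was 0.297, in a fit other than those that left out a library. In AhRfl/fl cells Nceh1 went from 86.7, 78.6 and 82.5 CPM to 63.9, 64.5 and 64.4 CPM, a response of -0.36 (SE 0.07, edgeR adjusted p = 0.0811), which DESeq2 (adjusted p = 0.0019) and the paired edgeR fit (adjusted p = 0.0173) called. Averaged over genotypes, edgeR called Nceh1 (-0.38, adjusted p = 0.00324), and also Prdx6 (0.46, adjusted p = 0.00689) and Ephx1, the microsomal epoxide hydrolase (0.37, adjusted p = 0.0162), the latter 2 higher with CRE and named after their values were seen. In that averaged contrast 1.1% of all genes were called in either direction.

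The 3 of these hydrolases with the highest CPM had more reads than any carboxylesterase. Esd, which splits S-formylglutathione, averaged 1421 ± 101 CPM in AhRfl/fl cells with PBS and 1938 ± 321 with CRE. Prdx6, a peroxiredoxin with phospholipase activity on surfactant lipids, averaged 707 ± 44.8 and 952 ± 40.7 CPM. Abhd2, a lipid hydrolase, averaged 460 ± 19.0 and 422 ± 46.2 CPM. Per length, Esd averaged 376 ± 23.6 FPKM, Prdx6 131 ± 6.84 FPKM and Abhd2 38.8 ± 0.898 FPKM in that group with PBS, against 22.5 for Ces1g. On that scale Ephx1 (107 FPKM) and Lypla2 (47.0 FPKM) stood above Abhd2, and Pnpla2 (38.9 FPKM) was level with it.

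The genes whose levels ran most like Ces1g over the 12 libraries were named by Pearson's r of log2 CPM. Selenbp1, a selenium-binding protein, had r = 0.984, followed by Rdh10, a retinol dehydrogenase (0.975), Cyp1b1 (0.973), Dynlt1b (0.972), C130046K22Rik (0.955), Acp1 (0.955), Bmf (0.953), Arl6ip5 (0.952), Xdh (0.946) and Padi2 (0.939). The Ces1g values fell into 2 separate sets by genotype, so r largely restates the genotype step that chose Ces1g. The correlation of the deviations from the 4 group means differed among these genes and is given as a description. It was 0.726 for Bmf, 0.661 for Selenbp1, 0.658 for Cyp1b1, 0.635 for Padi2 and 0.450 for Rdh10. It was 0.187 for Dynlt1b, 0.055 for Arl6ip5, -0.361 for C130046K22Rik, -0.366 for Xdh and -0.380 for Acp1. For Ces1d and Ces1e the same correlation with Ces1g was -0.375 and 0.046. PBS and CRE libraries of one number deviated together, so these values rest on few separate points. Replicate 1 was the highest Sftpc-Cre;AhRfl/fl library under both treatments for Ces1g, Bmf, Cyp1b1 and Padi2. In AhRfl/fl cells Ces1g was lowest in replicate 3, where Padi2 was highest, and Cyp1b1 was lowest in replicate 1. C130046K22Rik had 0 CPM in every Sftpc-Cre;AhRfl/fl library and 0.936 to 1.85 CPM in AhRfl/fl libraries. It passed the filter only through AhRfl/fl libraries, and its correlations rest partly on a floor.

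Selenbp1 had the highest r and was mostly higher with CRE too. It was picked over PBS and CRE libraries together, so that likeness is partly set by the choice. It was at 124, 163 and 124 CPM in AhRfl/fl replicates 1 to 3 with PBS and at 165, 196 and 192 CPM with CRE. In Sftpc-Cre;AhRfl/fl libraries it was at 40.0, 38.5 and 44.1 CPM with PBS and at 65.8, 48.0 and 41.3 CPM with CRE. It was higher with CRE in all pairs except Sftpc-Cre;AhRfl/fl replicate 3. The genes most like Ces1d were Optn (0.965), Krt23 (0.954) and Stk11 (0.940), and those most like Ces1e were Chp1 (0.944), Zfp949 (0.927) and Tbc1d30 (0.925). Ces1e was the ninth most like Ces1d, and Ces1d the sixth most like Ces1e. By contrast Ces1e stood at place 136 and Ces1d at place 273 of the genes most like Ces1g.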

How the data were processed

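RNA from cultured AT2 cells was sequenced from stranded mRNA libraries, 12 in all. Per the labels and the methods, the authors aligned reads with STAR 2.7.2b to GRCm38 and deposited counts per gene made with Salmon and Partek. How whole numbers arose from Salmon's estimates is not given in the sources used here. The deposited FPKM values, made by the authors from the counts and a gene length, were used only to compare levels between genes. Gene identifiers were matched to GENCODE M21 (55450 of 55450), and 0 sample columns were left unused.

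Groups followed the labels. Genes were filtered with filterByExpr (minimum count 10), which left 20612, and counts were fitted over all 12 libraries with TMM normalization and the quasi-likelihood test of edgeR 4.0.16 (R 4.3.3), with Benjamini-Hochberg adjustment over all genes and a threshold of 0.05. The fit was tested on simulated data. CPM is a count scaled to the library's total times its TMM factor, the limit from a count of 0 was set on totals without that factor, and the confidence level of intervals is 95%. Alternatives were DESeq2 1.42.0, limma-trend (limma 3.58.1), RLE size factors, no filter, a replicate block and each library left out. Libraries of one number within a genotype were treated as pairs in the blocked fit because their deviations correlated above 0.1 in every pair (0.325 to 0.729). The labels do not state what the number marks. The CRE response averaged over genotypes, the summed libraries and the paired fit without each pair were added after seeing the data. Likeness used log2 CPM with a prior count of 2. Coding sequences were aligned with Biopython 1.88.

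The members and gene lists were chosen with earlier results of these data known. Named were the 7 members, the other family genes that were tested, hydrolases called or among the 3 most abundant, called neighbours within 500 kb, the 10 genes most like Ces1g and the 3 most like each other member of at least 1 CPM, and Ahr and Cyp1b1. Intervals and floors cover counting error or the spread between libraries only. Protein sequences were not used here.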

Additional observations from a re-analysis of the deposited data

How the results depend on the processing

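Counts of members called by edgeR were the same in the 5 contrasts under DESeq2, RLE size factors, limma-trend with Benjamini-Hochberg adjustment and no filter on low counts. Under limma-trend with p below 0.05 before adjustment, 3 members were lower for the genotype with PBS (1.76% of all genes) and 2 with CRE (1.7%). Both counts include Ces1g, which the genotype difference chose. By the same rule 1 member (Ces1g) was higher for CRE in Sftpc-Cre;AhRfl/fl cells (1.84% of all genes). With the replicate block that paired PBS and CRE libraries within a genotype, edgeR called 1 member (Ces1g) for CRE in Sftpc-Cre;AhRfl/fl cells (0.67, adjusted p = 0.0302). It also called 1 for CRE averaged over genotypes. Of all genes, 1.33% and 3.47% were called higher in these 2 comparisons. The block changed no other count of members called. Numbers were not shared across genotypes in the same way (r of 0.420, 0.042 and 0.106 with PBS and 0.413, -0.029 and 0.087 with CRE). With libraries summed, 0 to 1 member was called when 1 sum was left out. That member was Ces1g, chosen by this contrast (-2.79 to -2.43), so nothing is read from its calls. Leaving out 1 library turned the sign of the following values. For CRE in AhRfl/fl cells the ranges were -0.18 to 0.11 for Ces1d, -0.24 to 0.21 for Ces1e and -0.40 to 0.32 for Ces2g. For CRE in Sftpc-Cre;AhRfl/fl cells they were -0.048 to 0.17 for Ces1e and -0.53 to 0.76 for Ces2g. The genotype difference of Ces2g with CRE ranged from -0.91 to 0.10 and with libraries summed from -0.99 to 0.022. The interaction ranged from -0.16 to 0.29 for Ces1e and from -0.51 to 0.78 for Ces2g. The cause was not tested. Depth limits what can be said of Ces1c, Ces1f and Ces2e, and 3 libraries a group limit the rest.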
